A study of Homo sapiens with 4 samples.

Results

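H3K27 acetylation (H3K27ac) was present at 864 protein-coding promoters both with the BET inhibitor OTX015 alone and with OTX015 plus the Menin inhibitor SNDX-50469. These promoters were selected on the deposited peaks themselves: a promoter, the 5′ end of a gene with 1 kb either side on GRCh38, was a member where at least 1 bp of it lay under a peak of the OTX015 list and at least 1 bp under a peak of the combination list. Of 13939 promoters on the 16 chromosomes examined (1 to 4, 7, 9 to 12, 14 to 18, 21 and 22), the 864 members made up 6.2% (Wilson 95% interval 5.81 to 6.61%). A further 803 (5.76%) met an OTX015 peak only, 505 (3.62%) met a combination peak only, and 11767 met a peak in neither list. Members were thus 51.8% of the 1667 promoters with an OTX015 peak and 63.1% of the 1369 with a combination peak. Since the peaks chose the members, these shares and the peak sizes below are descriptions and were not tested.

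The cells were MOLM13, a human acute myeloid leukaemia line that carries an MLL-AF9 fusion, treated for 16 hours with 500 nM OTX015 or with 500 nM OTX015 and 500 nM SNDX-50469. Chromatin was precipitated with an antibody to H3K27ac, which the sample titles spell H2K27Ac, and each treatment had 1 ChIP library and 1 input library. Both groups received OTX015, and untreated cells and SNDX-50469 alone were not analysed here, so the values compare the combination with BET inhibition and not with resting cells. With 1 library a treatment no difference has a replicate check, and every interval covers counting over promoters only. The combination library was deeper by 1.92 times by the background solved from its lowest peaks, and its weakest peaks lay at 4.76 times background against 6.54 times with OTX015; the part of this depth gap in any difference below was not tested. Of 55852 OTX015 peaks and 86207 combination peaks, 15440 and 17246 lay on the 16 chromosomes.

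H3K27ac is laid down by the acetyltransferases CBP and p300 and marks active promoters and enhancers. BET proteins bind acetylated histones and recruit the elongation machinery, which OTX015 blocks by occupying their bromodomains. Menin tethers MLL1 and its leukaemic fusion proteins to chromatin at target genes such as HOXA9, and Menin inhibitors break that contact.

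The DNA just upstream of members ranged from CpG-rich sequence full of GC boxes to CpG-poor sequence of granule and chemokine genes. The 250 bases before the 5′ end are printed below for 9 members, each the first in one of the rankings or gene lists used below that had a RefSeq sequence at its 5′ end and no other protein-coding gene in these bases, as RefSeq gives them for GRCh38.p14, 5′ to 3′ on the gene's strand. Capitals mark the GC box GGGCGG, the ETS-type site CCGGAAG and the CCAAT box CCAAT, searched on both strands, and overlapping matches run together. LHX3 (chr9:136205129-136205378, minus strand) had the largest loss of nearby cover, and CCL3L3 (chr17:36196759-36197008, minus strand) the largest gain.
LHX3: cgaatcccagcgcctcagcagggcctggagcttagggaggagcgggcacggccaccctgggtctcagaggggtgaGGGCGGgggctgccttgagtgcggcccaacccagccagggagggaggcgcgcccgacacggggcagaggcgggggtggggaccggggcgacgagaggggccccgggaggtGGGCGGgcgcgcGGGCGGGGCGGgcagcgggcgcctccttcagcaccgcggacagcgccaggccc
CCL3L3: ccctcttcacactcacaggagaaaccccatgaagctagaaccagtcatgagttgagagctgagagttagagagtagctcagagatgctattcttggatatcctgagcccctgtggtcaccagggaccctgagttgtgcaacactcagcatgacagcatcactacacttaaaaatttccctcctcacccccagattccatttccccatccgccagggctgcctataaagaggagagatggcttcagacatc
ANKRD13D (chr11:67289053-67289302, plus strand) had the widest peaks in both lists, and UBALD2 (chr17:76265098-76265347, plus strand) was the first such member in the ranking by fold.
ANKRD13D: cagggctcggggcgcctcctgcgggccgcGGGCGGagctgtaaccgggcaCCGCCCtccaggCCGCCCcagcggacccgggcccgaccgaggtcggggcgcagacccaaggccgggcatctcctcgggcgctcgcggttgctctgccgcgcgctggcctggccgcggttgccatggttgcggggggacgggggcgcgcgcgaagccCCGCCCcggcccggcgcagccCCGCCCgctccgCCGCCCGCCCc
UBALD2: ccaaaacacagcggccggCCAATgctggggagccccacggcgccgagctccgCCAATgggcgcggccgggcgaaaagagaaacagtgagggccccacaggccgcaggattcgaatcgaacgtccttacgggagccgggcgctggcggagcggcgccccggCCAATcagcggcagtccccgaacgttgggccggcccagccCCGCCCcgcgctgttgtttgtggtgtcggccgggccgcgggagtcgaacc
ZEB2 (chr2:144520120-144520369, minus strand) led the further MLL fusion targets and CTSG (chr14:24576251-24576500, minus strand) the myeloid genes that could be shown.
ZEB2: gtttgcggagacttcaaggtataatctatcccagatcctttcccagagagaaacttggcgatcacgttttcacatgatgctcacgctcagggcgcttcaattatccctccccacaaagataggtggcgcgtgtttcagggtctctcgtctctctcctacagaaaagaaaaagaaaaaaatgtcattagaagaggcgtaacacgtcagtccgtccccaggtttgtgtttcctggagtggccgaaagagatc
CTSG: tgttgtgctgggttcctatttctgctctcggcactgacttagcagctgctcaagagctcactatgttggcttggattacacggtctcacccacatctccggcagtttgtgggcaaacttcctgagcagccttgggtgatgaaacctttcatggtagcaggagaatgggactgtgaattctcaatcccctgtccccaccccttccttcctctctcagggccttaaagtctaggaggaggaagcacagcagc
PRPF38B (chr1:108692060-108692309, plus strand) stood for splicing factors, HEXIM1 (chr17:45148225-45148474, plus strand) for BET response markers and CCNL1 (chr3:157160148-157160397, minus strand) for the cell cycle list.
PRPF38B: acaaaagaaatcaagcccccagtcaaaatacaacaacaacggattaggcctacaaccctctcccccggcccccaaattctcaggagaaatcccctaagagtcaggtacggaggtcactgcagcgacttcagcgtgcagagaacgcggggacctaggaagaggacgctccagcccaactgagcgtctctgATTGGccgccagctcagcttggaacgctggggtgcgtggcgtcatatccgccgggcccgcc
HEXIM1: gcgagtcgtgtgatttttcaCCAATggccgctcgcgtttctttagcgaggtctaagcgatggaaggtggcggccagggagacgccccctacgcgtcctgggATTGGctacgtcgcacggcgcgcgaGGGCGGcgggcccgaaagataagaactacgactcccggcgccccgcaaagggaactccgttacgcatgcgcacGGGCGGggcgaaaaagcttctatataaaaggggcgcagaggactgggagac
CCNL1: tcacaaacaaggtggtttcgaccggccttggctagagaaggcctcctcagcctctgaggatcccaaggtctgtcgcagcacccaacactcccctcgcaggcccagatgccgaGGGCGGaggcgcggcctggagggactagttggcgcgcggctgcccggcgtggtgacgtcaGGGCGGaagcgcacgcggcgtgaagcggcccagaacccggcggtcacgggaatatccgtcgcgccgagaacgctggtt

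The upstream runs differed widely in composition. That of ANKRD13D held 40 CpG dinucleotides and 7 GC boxes at a GC content of 82.8%, and that of LHX3 26 CpGs and 4 GC boxes at 78.4%. UBALD2 carried 3 CCAAT boxes and HEXIM1 carried 2. The runs of CCL3L3, ZEB2 and CTSG held none of the 3 motifs, with 1, 12 and 3 CpGs. None of the 9 runs held the ETS-type site.

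Member promoters were on the whole CpG-rich, and more often so than promoters with a peak in neither list. Of the 864 members, 647 (74.9%) could be matched to a RefSeq promoter sequence at the same 5′ end, covering 250 bases before it and 50 after it. Their median GC content was 65.3%, against 63.0% for all 10009 promoters matched, and the median observed over expected CpG ratio was 0.881 against 0.773. A promoter was called CpG-rich at a GC content of at least 50% and a ratio of at least 0.6. CpG-rich promoters made up 81.0% of members (77.8 to 83.8%), 80.8% of promoters with an OTX015 peak only, 67.8% of those with a combination peak only (62.8 to 72.5%) and 62.3% of those with neither (61.2 to 63.3%). The members thus resembled the OTX015-only promoters in this respect, and the combination-only promoters lay between them and the rest.

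Among the motifs searched, the GC box differed most in percentage points between members and all promoters. GGGCGG was found in 70.9% of members (67.3 to 74.3%) and 58.6% of all promoters of the same length. TATAAA was found in 6.65% of members and 10.1% of all promoters, and the E box CACGTG in 11.7% and 9.01%. The PU.1 letters GAGGAAGT were rare, in 3.86% of members (2.63 to 5.64%) and 2.33% of all promoters, a share outside the members' interval. The member intervals of CCAAT (37.2 and 36.4%), CCGGAAG (16.5 and 14.6%) and the RUNX letters TGTGGTT (2.78 and 3.57%) included the shares of all promoters. The ETS-type site was found in 22.6% of OTX015-only promoters (19.5 to 26.1%), above the 16.5% of members (13.9 to 19.6%). A match is a run of letters and does not show binding.

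Many members faced another gene. Of the 864, 207 (24.0%, 21.2 to 26.9%) had the 5′ end of a protein-coding gene on the opposite strand within 1 kb, against 13.9% of all promoters, 24.4% of OTX015-only and 20.8% of combination-only promoters. In 198 members that neighbour was itself a member. Through such pairs, neighbours on the same strand or broad peaks, 241 members shared peaks with another member, and the 864 promoters rested on 741 separate groups of connected peaks. ASPRV1, a skin protease gene, and PCBP1, which encodes a poly(C)-binding RNA protein, are such a pair on chromosome 2, where 1 peak per list counted for both. A peak between paired genes cannot be assigned to either.

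Members were spread over all 16 chromosomes. Their share ran from 3.81% of promoters on chromosome 21 (2.02 to 7.09%) to 8.33% on chromosome 17 (6.87 to 10.1%), and only for chromosomes 4 and 17 did the interval leave out 6.2%. Chromosome 17 gave 96 of 1153 promoters and chromosome 4 gave 33 of 760.

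**Figure D1:**
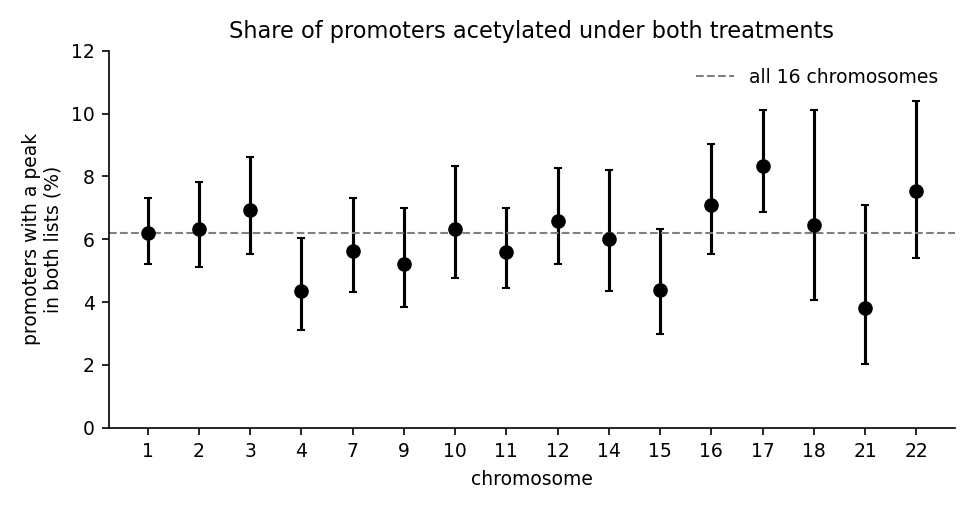
Percentage of protein-coding promoters with a peak in both lists, by chromosome; points are shares, bars Wilson 95% intervals and the dashed line the share over the 16 chromosomes. Chromosome 17 stands highest at 8.33% and chromosome 21 lowest at 3.81%, and most intervals include 6.2%.

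Peaks at members lay mainly just downstream of the 5′ end. In both lists the position most often covered was 350 bp into the gene, under an OTX015 peak in 57.5% of members and under a combination peak in 49.1%. The first base itself was covered less often, in 30.1% of members with OTX015 and 38.4% with the combination, and the curves differed most in shape around it. With OTX015 cover dipped from 31.8% of members 500 bp before the 5′ end to 27.8% at 200 bp before it, whereas with the combination it was 33.2% and 32.5% at these positions and then climbed towards the gene. More of the 10 kb downstream than of the 10 kb upstream was covered in 65.2% of members with OTX015 and 60.1% with the combination. No base of the 10 kb upstream was covered in 300 members with OTX015 and in 220 with the combination. At 10 kb upstream only 2.66% of members were covered in either list.

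**Figure D2:**
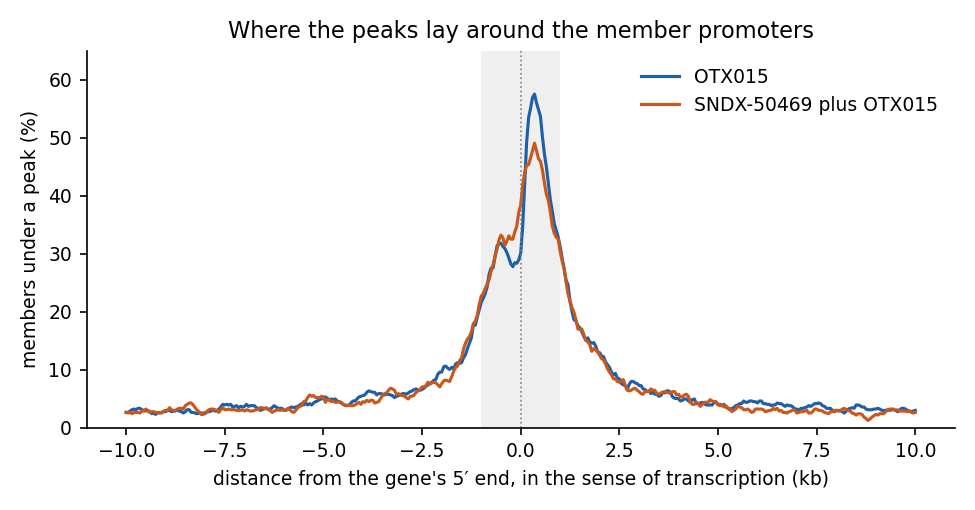
Percentage of the 864 members under a peak at each distance from the 5′ end, in the sense of transcription, for OTX015 and SNDX-50469 plus OTX015; the grey band is the promoter used to choose members. Both curves peak at 0.35 kb downstream, at 57.5% and 49.1%, and the OTX015 curve has a low of 27.8% at 0.2 kb upstream.

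Members carried wider and higher peaks than the lists at large. The summed width of the peaks touching a member had a median of 0.740 kb with OTX015 against 0.690 kb with the combination, over 866 and 875 distinct peaks whose own median widths were 0.573 and 0.558 kb. All single peaks on the 16 chromosomes had medians of 0.255 and 0.250 kb. Summed widths were 0.319 kb at OTX015-only promoters and 0.284 kb at combination-only promoters. The fold, the authors' ratio of pileup to background averaged over a peak, had medians of 4.10 and 3.65 at members, of 3.55 and 3.37 over all peaks of the 16 chromosomes, of 3.64 at OTX015-only and of 3.38 at combination-only promoters. Folds are not comparable between the lists because the backgrounds differ. Most members had a single peak, 722 with OTX015 and 719 with the combination.

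The wider or higher a promoter's peak in one list, the more often the other list had a peak there. With the 1667 OTX015-marked promoters ranked by fold and split into 4 equal groups, the share that were members was 25.7%, 43.2%, 59.0% and 79.4% from lowest to highest. Ranked by summed width, the shares ran from 25% to 85.6%. Among the 1369 combination-marked promoters the shares by fold ran from 39.5% to 88.9% and those by width from 33.6% to 92.1%. The choice of members uses the same peaks, so these shares describe how the overlap was made up.

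Between the treatments, widths of called peaks at members scattered without a common shift. The lists differ in depth and in their weakest peaks, so equal widths do not show equal acetylation. Peaks were wider with the combination at 436 members (50.5%, 47.1 to 53.8%) and narrower at 427, and the ratio of summed widths had a median of 1.01, with 5% of members under 0.233 and 5% over 3.62. Within the promoter itself, 412 members had more and 421 less sequence under peaks with the combination, with medians of 624 bp (OTX015) and 585 bp (combination). Peaks of both lists overlapped each other at 753 members (87.2%), while at 111 they lay apart within the same promoter. Across the 741 peak groups, which share depth and base composition within a library, Spearman's correlation between the lists was 0.57 for width, 0.71 for cover within 10 kb and 0.35 for fold.

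**Figure D3:**
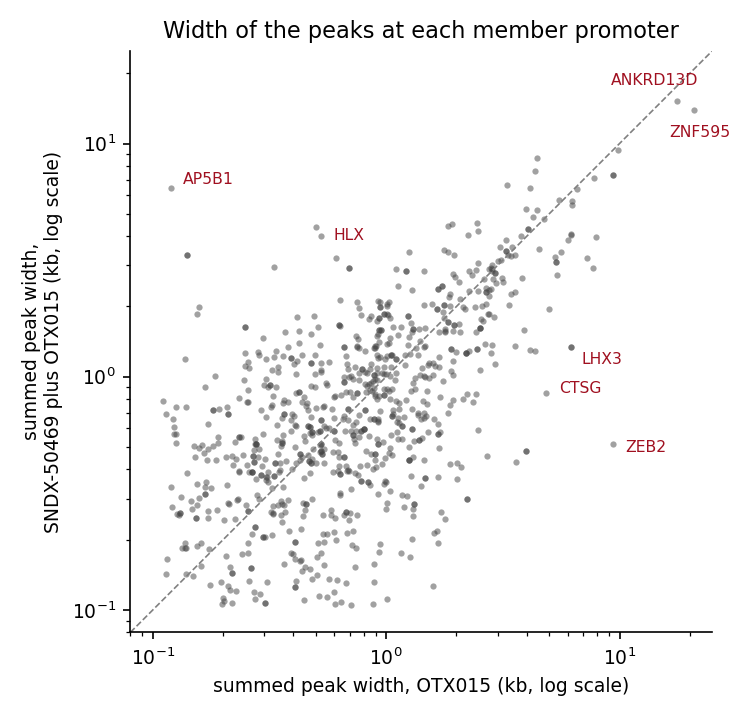
Summed width of peaks touching each of the 864 members in the OTX015 list (x axis, kb, log scale) and in the combination list (y axis, kb, log scale); each point is a promoter and the dashed line marks equal widths. Points lie on both sides of the line, 436 above and 427 below it, with ZEB2, CTSG and LHX3 well below and AP5B1 and HLX well above.

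Broad peaks at the same promoters under both treatments marked a small group. Summed width was at least 2 kb in both lists at 78 members and at least 5 kb at 10. Members were ranked by the narrower of their 2 summed widths. First was ANKRD13D, which encodes a ubiquitin-binding ankyrin protein, at 17.7 kb with OTX015 against 15.2 kb with the combination. ZNF595, a zinc finger gene close to the end of 4p, was wider than ANKRD13D with OTX015 but narrower with the combination (20.8 and 13.9 kb). The leukocyte formin gene FMNL1 had 9.85 and 9.39 kb.

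BTBD19 (9.40 and 7.29 kb) and DENND2D (7.76 and 7.11 kb) came next, followed by TNRC18 (6.57 and 6.40 kb), MEF2D, a MADS-box factor of leukaemia cells (6.23 and 5.69 kb), and SKIDA1 (5.52 and 5.75 kb). RCSD1 had 6.27 and 5.46 kb. DYNLT4, which lies beside BTBD19 and shares its peaks, was the other member of at least 5 kb, and MLC1 followed just under that size (4.75 and 4.74 kb). SKIDA1 alone of these was wider with the combination. Whole promoters lay under peaks in both lists at 26 members, among them the repressor genes GFI1 and ETV6, the cell cycle inhibitor gene CDKN1B, the chromatin remodeller gene ARID1A, the methyltransferase gene KMT2E and the leukosialin gene SPN.

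The highest peaks were not always the widest. Ranked by the lower of the folds in the 2 lists, which was the combination fold at all 10 genes named here, ASPRV1 and PCBP1 led with their common peaks at 5.98 (OTX015) and 5.78 (combination). MEF2D had 6.62 and 5.65, and UBALD2 6.13 and 5.45 although its peaks spanned only 0.922 and 0.314 kb. PTMA, which encodes prothymosin alpha, had 7.71 and 5.44, and the E3 ligase gene UHRF2 7.51 and 5.11.

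ZNF595 (5.73 and 5.19), P2RX1, the gene of an ATP-gated channel of platelets and myeloid cells (5.16 and 5.08), ANKRD13D (6.41 and 5.07) and UNK (5.70 and 5.06) completed these 10. The member with the highest OTX015 fold was NRAS, a RAS gene, at 8.73. Its combination peak had 4.22 over another background, so this pair does not measure a loss, and the peaks spanned 0.899 and 0.823 kb. NRAS was singled out after its values were seen.

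Cover around members, the sequence under peaks within 10 kb of the 5′ end, summed to 1533 kb with OTX015 against 1470 kb with the combination. It was lower with the combination at 429 members (49.7%, 46.3 to 53.0%) and higher at 435 (50.3%, 47.0 to 53.7%). Among all 5593 promoters of these chromosomes with cover in either list, 46.4% were lower and 53.6% higher. The median member had 1.00 kb with OTX015 against 0.999 kb with the combination, and 579 members (67.0%) stayed within 2-fold. Cover was more than 2-fold lower at 142 members and more than 2-fold higher at 143. The losses reached further, with 106 members lower by at least 1 kb and 85 higher, and differences between −11.6 and 4.96 kb. A common enrichment of 6.54 times background is the floor of the OTX015 list. A cut there kept all 55852 OTX015 peaks but only 1166 combination peaks of the whole lists. Of the 87 members left, 59 (67.8%) were covered less with the combination, at 318 and 246 kb in sum. Because that cut shortens the combination list alone, less combination cover was largely built in, and the share does not decide whether the even split holds.

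The largest loss among members was at LHX3. This LIM homeobox gene of pituitary and motor neuron development had 14.4 kb under peaks with OTX015 and 2.75 kb with the combination. Its promoter was covered whole with OTX015 and over 1090 bp with the combination, so the loss lay mostly outside it. ZEB2, a zinc finger repressor of blood cells, kept 868 and 515 bp of its promoter, while 1 peak of 9.37 kb with OTX015 faced 1 of 0.515 kb with the combination. BRD3, a BET protein gene and so a target of OTX015, had 193 and 138 bp in the promoter but 6.84 and 0.698 kb in the window.

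MYO1G, a myosin gene of blood cells, had 9.71 and 3.78 kb, with 1 promoter peak with OTX015 and 3 with the combination. DRC8 had 8.63 and 2.73 kb. COMMD3, which adjoins BMI1, had 9.64 and 4.11 kb. At all 3 more than 1 kb of the promoter was under combination peaks.

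MAP1LC3B2, an autophagy gene, had 8.57 and 3.13 kb, and its promoter peaks had folds of 4.67 and 5.12, each against its own list's background. ZNF516 had 12.8 and 7.76 kb, and CNOT6L, a deadenylase subunit gene, 6.11 and 1.29 kb. GPR132, a lysophospholipid-sensing receptor gene, had 6.52 and 2.26 kb. The homeobox gene HOXA9 and the granule protease gene CTSG, with their lists below, were the other two. With peaks at a −log10 q of 2 or more the differences were smaller at MAP1LC3B2 (−2.23 kb), CNOT6L (−2.40 kb) and GPR132 (−1.39 kb). That cut, also used below, kept 4211 OTX015 and 11097 combination peaks of the whole lists, so it does not make them alike in depth.

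The largest gain among members was at CCL3L3. This chemokine gene, with near-identical copies whose reads are uncertain, had 4.87 kb with OTX015 against 9.83 kb with the combination. SNX20, a sorting nexin gene of leukocytes, had 1.12 and 5.95 kb, although only 132 and 306 bp lay in the promoter and the peaks there did not touch. MPO, the myeloperoxidase gene, had 5.61 and 9.92 kb, and its promoter was covered over 1359 bp with OTX015 and whole with the combination.

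SPNS3 had 2.16 and 5.96 kb, and folds of 3.48 and 5.15, each against its own list's background. USP4, a deubiquitinase gene, had 1.70 and 5.36 kb. AP5B1, an adaptor complex gene, had the largest ratio of peak widths, 54.0, from 0.119 to 6.43 kb.

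STAB1, a scavenger receptor gene of macrophages, had 1.39 and 4.69 kb. IRF2BP2, a transcriptional corepressor gene, had 7.02 and 10.3 kb, and the homeobox gene HLX 1.60 and 4.78 kb. ATG16L2 went from 397 bp to the whole promoter, the largest gain of promoter cover among the 24 genes, with 2.03 and 4.70 kb in the window. PARVG, a parvin gene of blood cells, had 3.53 and 6.17 kb and MS4A7, a macrophage membrane protein gene, 2.47 and 5.07 kb. With peaks at a −log10 q of 2 or more the difference at IRF2BP2 fell to 0.139 kb and that at PARVG to 0.86 kb, with 3.20 kb left at SNX20 and 1.87 kb at STAB1. With equal numbers of peaks in both whole lists it was 2.34 kb at SPNS3, 1.59 kb at ATG16L2 and 1.71 kb at MS4A7.

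**Figure D4:**
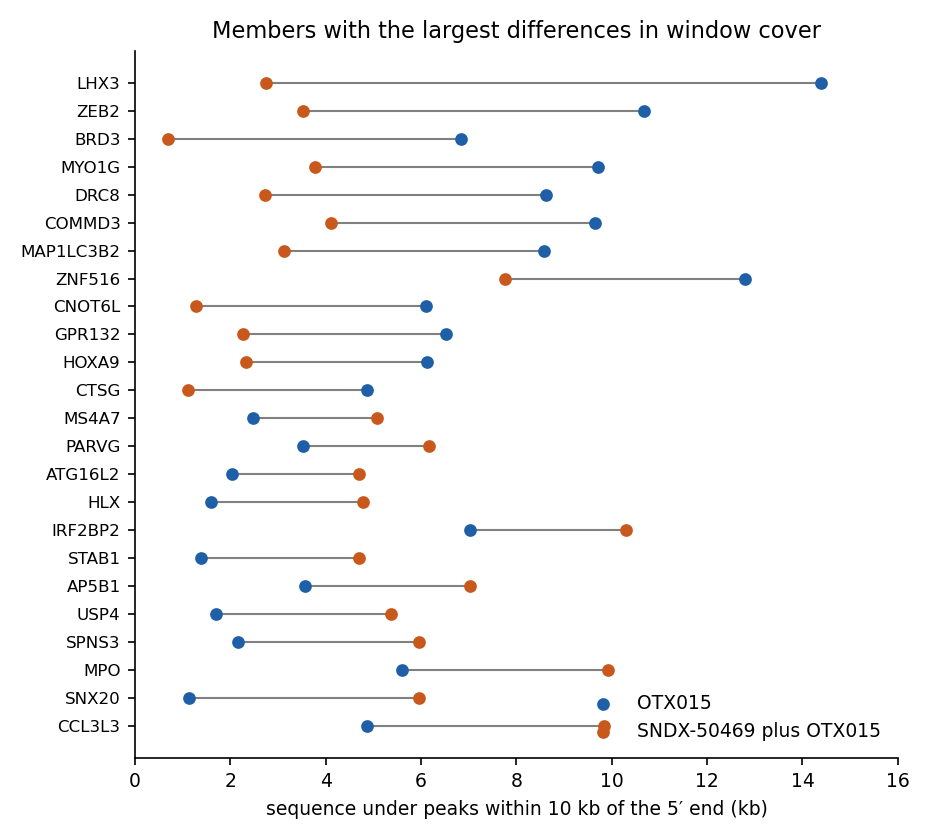
Sequence under peaks within 10 kb of the 5′ end (kb) for the 12 members with the largest losses and the 12 with the largest gains; each line joins the OTX015 value and the value of SNDX-50469 plus OTX015, 1 library each. LHX3 spans the longest line, from 14.4 to 2.75 kb, and the gains are shorter, CCL3L3 running from 4.87 to 9.83 kb.

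Members among MLL fusion targets were mostly covered less with the combination. Of 7 targets named by the study and lying on these chromosomes, 3 were members (42.9%, 15.8 to 75%), against 6.2% of all promoters. All 3 were covered less, where 49.7% of all members were, with 17.9 kb in sum with OTX015 and 7.42 kb with the combination. BMI1, a Polycomb protein gene, had 1503 and 554 bp of its promoter and 8.88 and 4.28 kb of its window covered. HOXA9, the homeobox gene whose high expression marks these leukaemias, had 962 and 808 bp and 6.12 and 2.33 kb. PBX3, which encodes a HOX cofactor, had 1377 and 765 bp and 2.92 and 0.821 kb. With peaks at a −log10 q of 2 or more PBX3 alone was still a member, and the window differences were −3.03 kb at BMI1, −1.97 kb at HOXA9 and −0.872 kb at PBX3. None of the 3 was a member at the common enrichment.

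CDK6, JMJD1C and BCL2 were not members because a promoter peak was called with OTX015 only, and MEIS1 had no promoter peak in either list. The study reported PBX3, CDK6, JMJD1C and MEIS1 among the fusion targets lost from super-enhancers with the combination. Its comparison was with untreated cells or SNDX-50469 alone and not with OTX015. The direction at these genes is still not taken as independent evidence. Of 22 further fusion targets, 5 were members (22.7%, against 6.2% of all promoters). ZEB2, the splicing regulator gene MBNL1 (4.69 and 1.71 kb) and the mRNA decay factor gene ZFP36L2 (2.90 and 2.61 kb) were covered less, and the blood factor gene LMO2 (6.13 and 6.86 kb) and the Mediator kinase subunit gene MED13L (2.77 and 3.17 kb) more. With peaks at a −log10 q of 2 or more the direction turned at LMO2, MED13L and ZFP36L2, and the difference at MBNL1 was −0.271 kb.

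Myeloid genes went both ways. Of 17, 7 were members (41.2%, 21.6 to 64.0%), against 6.2% of all promoters. MPO, SPI1, the gene of the master regulator PU.1 (4.003 and 5.04 kb), and the lysozyme gene LYZ (2.26 and 2.98 kb) were covered more. CTSG (4.86 and 1.11 kb), the fucosyltransferase gene FUT4 (4.63 and 1.28 kb), the macrophage gene CD68 (4.21 and 2.38 kb) and the G-CSF receptor gene CSF3R (2.03 and 1.47 kb) were covered less. The direction turned at CD68 with peaks at a −log10 q of 2 or more, and at SPI1 over the gene body with 10 kb either side. The window of CD68 overlaps that of EIF4A1, so the same peaks can count at both genes.

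The granule genes MPO and CTSG thus stood at opposite ends. CEBPE, a factor gene of granulocyte maturation, had a promoter peak with the combination only. Of 32 blood transcription factor genes, 12 were members (37.5%, against 6.2% of all promoters). With the combination 7 were covered more and 5 less, where 50.3% of all members were covered more. They included GFI1 (6.18 and 5.44 kb), ETV6 (4.40 and 5.15 kb) and NFE2L2, of the oxidative stress response (2.92 and 3.48 kb); over the gene body with 10 kb either side GFI1 and NFE2L2 turned.

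The labelled cell type was checked on its defining markers. Of 8 myeloid markers on these chromosomes, 5 were members (CSF3R, SPI1, LYZ, CD68 and MPO), against 6.2% of all promoters. FCER1G, ITGAM and ITGAX had no promoter peak. None of 4 B cell, 3 erythroid and megakaryocyte, 6 T and NK cell and 5 non-blood markers was a member, but the T and NK cell genes CD3D (165 bp) and GNLY (668 bp) and the astrocyte gene GFAP (845 bp) had a promoter peak in the combination list only. In the longer lists no B cell (0 of 8), erythroid and megakaryocyte (0 of 11) or non-blood gene (0 of 25) was a member. Their 95% intervals reached 32.4%, 25.9% and 13.3% and so included the 6.2% of all promoters. These lists are too short to set 0 apart from that share. Among 17 T and NK cell genes the 1 member was CD3G, with 115 and 165 bp of its promoter covered by peaks that did not touch.

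Splicing factor genes had the highest share of members of the 25 lists with all peaks. Of 22, 15 were members (68.2%, 47.3 to 83.6%), against 6.2% of all promoters. Only 4 of the 22 remained with peaks at a −log10 q of 2 or more, when 7 of 32 blood transcription factor genes did, and 1 of the 22 remained at the common enrichment. With all peaks, only PRPF8, SF3A1, SF3A3, SRSF11 and U2AF1 had a promoter peak in neither list. Peaks at the 15 members were narrow, with median widths of 0.534 and 0.563 kb. With the combination 10 were covered more and 5 less, where 50.3% of all members were covered more. HNRNPU, which encodes a nuclear scaffold protein, had 5.46 and 4.46 kb, and HNRNPK 1.66 and 2.39 kb. SRSF2, of the SR proteins that guide exon choice, had 0.479 and 1.16 kb and TRA2A 0.298 and 0.920 kb. PRPF38B (0.983 and 0.345 kb) and RBM5 (0.722 and 0.323 kb) were covered less. With equal numbers of peaks in both whole lists 13 were members, 7 covered more and 6 less, and SRSF2 was among those lost. HNRNPU turned to more cover with peaks at a −log10 q of 2 or more. The share was like that of the HNRNP and SRSF families taken by symbol, of which 17 of 26 were members (65.4%, 46.2 to 80.6%), a grouping that overlaps the list and was chosen after the values were seen.

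Ribosomal protein genes, which are highly transcribed in growing cells, had a share of members whose interval included that of all promoters. Of 62 (symbols RPL and RPS), 3 were members (4.84%, 1.66 to 13.3%, against 6.2% overall), namely RPL7A, RPS29 and RPL19, while 13 had an OTX015 peak only. Of 18 translation factor genes, 6 were members (33.3%, against 6.2% overall), led by EIF4A1 (2.74 and 1.30 kb), EIF3B (1.41 and 2.32 kb) and EIF5A (1.01 and 1.86 kb). EIF4A1, whose window overlaps that of CD68, turned to more cover with peaks at a −log10 q of 2 or more. Of 271 solute carrier genes 6 were members (2.21%, 1.02 to 4.75%), and of 345 olfactory receptor genes 2 (0.58%, 0.159 to 2.09%). These families too were grouped after the values were seen.

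Genes of the machinery that both drugs act on were members in part. Of 9 genes of BET proteins and BET response markers, 4 were members (44.4%, 18.9 to 73.3%, against 6.2% of all promoters). HEXIM1, an inhibitor of P-TEFb that BET inhibitors are known to induce, hardly differed, at 841 and 846 bp of promoter and 1.11 and 1.03 kb of window. JMJD6 (1.38 and 0.113 kb) and BRD3 were covered less and the chemokine receptor gene CCR2 was nearly equal (3.30 and 3.34 kb). JMJD6 and HEXIM1 turned with peaks at a −log10 q of 2 or more, where HEXIM1 alone of the 4 was still a member, and CCR2 turned with equal numbers of peaks.

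Of 14 genes of Menin, MLL and the super elongation complex, 3 were members (21.4%, against 6.2% overall). CCNT2, a cyclin gene of P-TEFb (1.41 and 0.340 kb), and MLLT10 (7.11 and 5.97 kb) were covered less and MLLT6 (1.37 and 2.60 kb) more. The window of MLLT10 takes in the promoter of SKIDA1, which was wholly covered in both lists. The promoter of MLLT10 itself had 463 and 214 bp covered. MEN1 and KMT2A had no promoter peak in either list. Both acetyltransferase genes were among the 5 members of 20 histone acetylation enzymes (25%, against 6.2% overall), EP300 (1.30 and 1.56 kb) and CREBBP (0.392 and 0.824 kb); EPC2 (0.224 and 0.526 kb) and BRPF1 (0.912 and 0.970 kb) were also covered more and the corepressor gene NCOR1 less (2.07 and 1.55 kb).

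Of 27 histone methylation and remodelling genes, 9 were members (33.3%, against 6.2% overall), with 4 covered more and 5 less. INO80 (1.28 and 2.38 kb), KMT2D (3.96 and 4.92 kb) and KDM2A (2.08 and 2.79 kb) were covered more, and EZH2, the Polycomb methyltransferase gene (1.17 and 0.547 kb), KMT2E (4.50 and 3.89 kb) and SETD1A (0.633 and 0.310 kb) less. Of 21 genes of RNA polymerase II and Mediator, 4 were members (19%). SUPT16H (0.306 and 1.64 kb) and POLR2A, the gene of the catalytic subunit (0.661 and 1.18 kb), were covered more, as was MED13L, and SUPT4H1 less (4.08 and 2.42 kb). NCOR1, BRPF1, KMT2D, MED13L and SUPT16H turned with peaks at a −log10 q of 2 or more.

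Cell cycle genes were members at 8 of 21 promoters (38.1%, 20.8 to 59.1%, against 6.2% overall), 4 covered more and 4 less. With equal numbers of peaks 7 were members, 2 covered more and 5 less, and with peaks at a −log10 q of 2 or more 2 were, both covered less. CDKN1B, the gene of the inhibitor p27, was wholly covered in both lists, with 8.66 and 5.90 kb in the window. CCNA2 (0.560 and 0.212 kb) and PLK1 (0.534 and 0.212 kb), of S phase and mitosis, were covered less. MCM7 of the replicative helicase (0.445 and 1.38 kb), CCNL1 (0.525 and 1.07 kb) and the checkpoint kinase gene BUB1 (0.252 and 0.418 kb) were covered more. MCM7, CCNL1 and PLK1 turned with peaks at a −log10 q of 2 or more.

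Stress, death, immune, metabolic and signalling lists had 2 to 5 members each, with shares of 7.69 to 25% against 6.2% of all promoters. Only for the proteasome and ubiquitin list (10.2 to 49.5%) and the signalling list (9.24 to 40.5%) did the 95% interval leave out 6.2%. The intervals of the other lists in this group, from chaperones to energy metabolism, included it. Of 16 proteasome and ubiquitin genes, 4 were members (25%), with USP1 (1.78 and 0.245 kb), USP34 (0.885 and 0.158 kb) and CUL3 (0.855 and 0.343 kb) covered less. All 3 members of 19 chaperone and unfolded protein response genes were covered less, where 49.7% of all members were. They were DDIT3 (3.69 and 2.49 kb), XBP1 (2.25 and 1.84 kb) and HSPA8, which hardly differed (1.34 and 1.33 kb). All 3 members of 21 MYC target and ribosome biogenesis genes were covered more, where 50.3% of all members were. The differences were small, at PA2G4 (0.678 and 0.884 kb), NOP58 (0.472 and 0.576 kb) and WDR43 (0.449 and 0.518 kb). Lists with 3 members are too short to set their direction apart from these shares. With equal numbers of peaks PA2G4 and WDR43 turned, and with peaks at a −log10 q of 2 or more XBP1.

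Of 25 DNA repair and damage response genes, 3 were members, among them MDM4 (0.381 and 0.968 kb), which was covered more but turned with peaks at a −log10 q of 2 or more. Of 19 apoptosis genes, 3 were members. CFLAR (2.89 and 3.85 kb) was covered more, and BID (1.29 and 0.814 kb) and BIRC5 (0.696 and 0.364 kb) less.

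The interferon and antigen list gave IFNGR2 (1.43 and 2.85 kb) and B2M (0.317 and 0.919 kb) of 22, both covered more, where 50.3% of all members were. Of the other lists, that of TNF and NF-kB gave NFKBIA (0.289 and 0.778 kb) and TNFRSF1A (1.955 and 1.67 kb) of 20. Energy metabolism gave the glycolytic genes ALDOA (0.770 and 1.22 kb) and ENO1 (1.30 and 1.71 kb) of 26, of which ALDOA turned with equal numbers of peaks. Of 24 signalling genes, 5 were members. The kinase gene SYK (0.644 and 1.74 kb) was covered more and ARHGDIB (2.90 and 0.252 kb), the adaptor gene GRB2 (0.664 and 0.585 kb) and NRAS (0.899 and 0.823 kb) less, though GRB2 turned over the gene body with 10 kb either side.

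**Figure D5:**
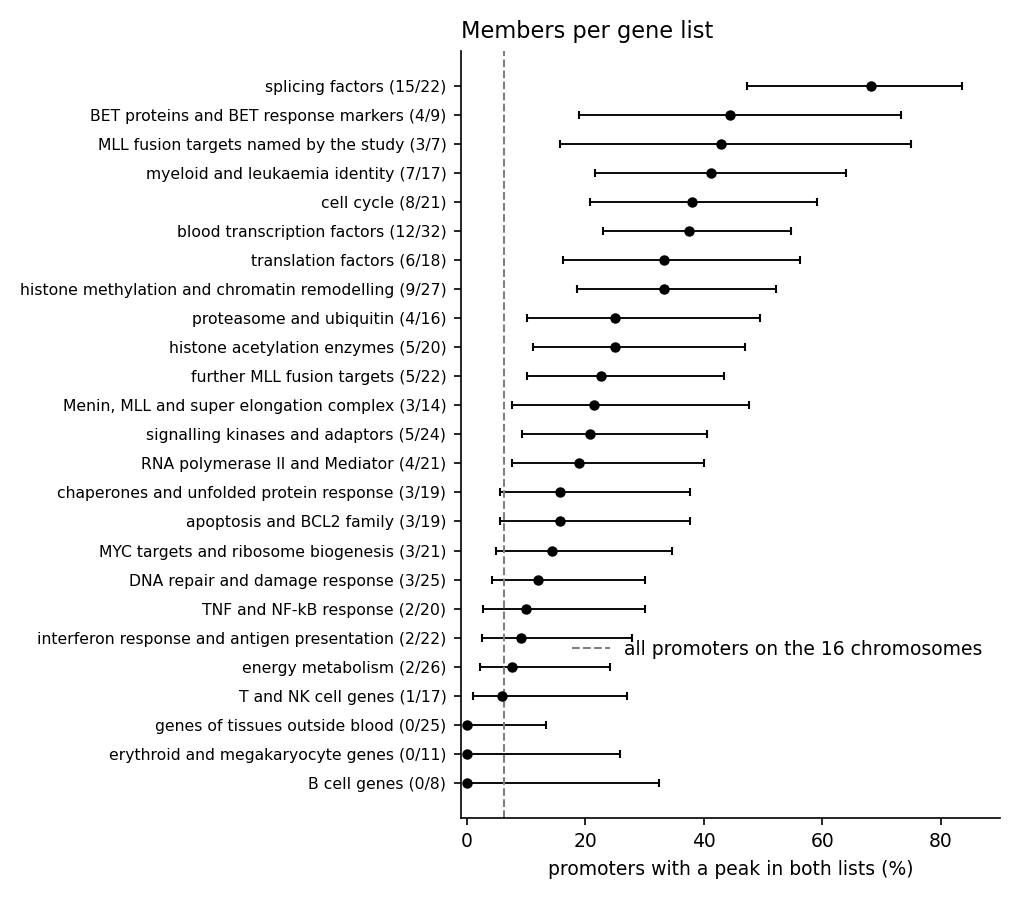
Percentage of promoters with a peak in both lists for each of 25 gene lists, with members and promoters on the 16 chromosomes in brackets; bars are Wilson 95% intervals and the dashed line is the share of all promoters. Splicing factors stand highest at 68.2%, and B cell, erythroid and non-blood genes at 0.

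Membership rested on little sequence at some promoters. At the limit of 1 bp, MYO15B had 1 bp under an OTX015 peak and 165 bp under a combination peak. SPEN had 695 and 10 bp and PLAC8 15 and 116 bp. Just outside, the nearest peak of the other list lay 3 bp beyond the promoter of SULT6B1, 4 bp beyond that of MXI1 and 8 bp beyond that of CD53. In all, 33 members had under 100 bp in either list, and 23 of the 1308 promoters with a peak in 1 list had a peak of the other within 100 bp.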

How the data were processed

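Per the submitters' processing notes, reads were handled with bcl2fastq 2.17, Trimmomatic 0.33, Bowtie 1.1.2, deepTools and MACS2 2.1.0 on GRCh38, whereas the study's methods name another aligner. For each ChIP library the authors deposited 1 list of broad peaks, in which a peak carries a score, a fold (the ratio to background), and its p and q as −log10 values. No read counts are given, so depth was solved from the lowest peaks of each list, a pileup of 5 over 0.764 fragments per base (OTX015) and of 7 over 1.47 (combination). Processed values of the input libraries were not used here.

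Peaks of a list were merged where they overlapped, and the covered length was taken in the promoter (1 kb either side of the 5′ end) and in a window of 10 kb either side. Windows of neighbouring genes can overlap, so the same peak can count at several named genes. The outer end of the RefSeq GRCh38.p14 gene record was used as the 5′ end. Strands came from RefSeq promoter sequences for 11515 genes and from GENCODE by symbol for 2424, no coordinate was converted, and 193 genes without a strand were left out. Other transcript starts were not used. Differences are combination minus OTX015, and no test was possible with 1 library a treatment.

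The members and the gene lists were chosen with earlier results of these data known; all 662 list entries matched a gene, 2 by an older symbol. Named are the 12 largest window losses and gains at least 20 kb apart, the 10 widest in both lists with the same spacing and the 10 highest, all members of the MLL fusion lists, up to 6 members of each other list by absolute window difference, and 3 members at either side of the 1 bp limit. Other genes named were chosen after their values were seen. A few list members stay in the counts but are not reported here by name. Printed sequences skip members absent from the RefSeq promoter table or whose upstream bases meet another protein-coding gene. In 200 simulated runs each, cover was recovered 200 times and the background 200 times. The simulated backgrounds followed the same formula that was solved, so this checks the arithmetic and not whether the deposited folds follow that formula. Alternatives changed the peaks, the promoter and the window. For equal numbers of peaks, the combination list was cut over the whole genome to its 55852 strongest peaks by p. Numbers on the 16 chromosomes were not made equal by this. Scripts ran under Python 3.11.15 with pandas 2.3.3, numpy 2.4.6, scipy 1.17.1 and, for the plots, matplotlib 3.10.9.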

Additional observations from a re-analysis of the deposited data

How the results depend on the processing

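No paired analysis was possible because each treatment had 1 ChIP library. The number of members was within 1.5 times of 864 under all but 2 alternatives: it was 217 with peaks at a −log10 q of 2 or more and 87 with a common enrichment over background. The share of members with more promoter cover in the combination list (47.7%) moved to 43.3% and 37.9% under these. The share with wider peaks (50.5%) moved to 36.8% with the common enrichment only. The share with more cover in the window (50.3%) was 47.0% at this −log10 q, 44.3% with equal numbers of peaks and 32.2% with the common enrichment. The common enrichment kept all 55852 OTX015 peaks but only 1166 combination peaks of the whole lists, so the cut itself removes combination peaks alone. The −log10 q of 2 or more kept 4211 OTX015 and 11097 combination peaks, so it did not make the lists alike in depth. Merging peaks within 1 kb, promoters of 500 bp or 2 kb either side, 200 bp of overlap, other windows, and 2 alternatives added after seeing the data (1 member per peak group, and strands from GENCODE) left these shares within the interval of the main value. Of 116 genes named by rule and reported here, 16 lost all cover in both lists at this −log10 q, and the sign of the window difference turned at 22; the differences, in kb, were then −0.506 at MEF2D, −0.346 at ASPRV1, −0.346 at PCBP1, −0.428 at PTMA, −2 at LMO2, −0.358 at MED13L, 1.54 at ZFP36L2, 0.445 at CD68, 0.113 at JMJD6, 0.025 at HEXIM1, 1.55 at NCOR1, −0.784 at BRPF1, −3.96 at KMT2D, −0.306 at SUPT16H, 2.29 at HNRNPU, −0.249 at SRSF2, 0.445 at EIF4A1, 0.36 at XBP1, −0.445 at MCM7, −0.052 at CCNL1, 0.212 at PLK1 and −0.381 at MDM4. With equal numbers of peaks 9 turned, to −0.428 at PTMA, −1.34 at LMO2, −1.04 at CCR2, −0.366 at SRSF2, −0.016 at EIF5, −0.678 at PA2G4, −0.449 at WDR43, −0.317 at CCNL1 and −0.77 at ALDOA (kb). Over the gene body with 10 kb either side 13 turned, to −0.791 at ANKRD13D, 0.17 at FMNL1, −0.648 at TNRC18, −1.04 at MEF2D, 0.092 at RCSD1, −1.22 at UNK, 1.21 at ZFP36L2, −0.798 at SPI1, 0.151 at GFI1, −0.002 at NFE2L2, 0.36 at HEXIM1, 0.893 at NCOR1 and 0.222 at GRB2 (kb). The cause was not tested. Depth limits both lists: a promoter with no peak is not shown to lack the mark.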

Other observations

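Some genes with no promoter peak in either list carried peaks of both lists at another RefSeq start of the same gene. Of 1865 such genes with a start more than 2 kb from the outer 5′ end, 71 (3.81%, 3.03 to 4.77%) met a peak of both lists there. At outer 5′ ends the share was 6.2% of all promoters. CELF2, an RNA-binding splicing regulator gene, PRKCD, a protein kinase C gene, PTPN3, a phosphatase gene, and TGIF1, a homeobox repressor gene, had the whole promoter around such a start covered in each list. At the lymphoid factor gene IKZF1 the values were 667 bp with OTX015 and 668 bp with the combination, at HOXA10 633 and 476 bp, and at RUNX1 796 and 382 bp. Among members with another start that far away, 23 of 113 (20.4%, 14 to 28.7%) had peaks of both lists at it too. The number of members therefore leaves out genes with peaks of both lists at an inner start only. Whether these genes are transcribed from there was not tested. These starts were examined after the data were seen.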
